A study of Mus musculus with 2 samples.

Results

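The 9 transcription factor genes described here, Tcf7, Lef1, Bach2, Satb1, Id3, Foxp1, Ets1, Myb and Zeb1, are known for their activity in resting T cells. They were taken by symbol, and all 9 were found among the 24346 symbols of both libraries. FDG (Foxp3-DTR-GFP) mice carry GFP under the endogenous Foxp3 locus, so that GFP marks Tregs. Mice aged 10 to 16 weeks received 50 μg of BLM into the trachea, and on day 15 the GFP+CD4+ T cells of spleen and of lung were sorted. The cells of 3 mice were pooled, so that each of the 2 tissues is represented by 1 library. Both groups shared genotype, agent and day. Libraries of untreated mice were not analysed here, so the comparison is between tissues of BLM-treated mice and not between treated and naïve mice. The strain background of the FDG mice and the sex of the pooled animals are not given in the sources used here. With 1 library per tissue, the spread between replicates is unknown and differences are given without p-values.

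A naïve or resting T cell is kept quiescent by a set of transcription factors that restrain effector genes and maintain genes of lymphoid homing and survival. TCF1 (encoded by Tcf7) and LEF1 bind DNA through the same kind of HMG box and can recruit β-catenin or corepressors of the TLE family, BACH2 represses effector genes such as Prdm1, and ID3 holds E proteins away from DNA. FOXP1 and ETS1 support quiescence and T cell gene expression, SATB1 organises chromatin, MYB promotes survival and self-renewal, and ZEB1 is a repressor that binds E-boxes. When Tregs are activated and enter tissues, some of these genes, though not all, are known to give way to other factors. Among those are Prdm1 (Blimp-1), Batf, Irf4 and Id2.

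Levels are given as FPKM, the fragments of a gene scaled by the length of its exons and by the mapped fragments of the library. The reads behind an FPKM were estimated from transcript lengths, and summed to about 9642822 in the splenic library and 12625786 in the lung library. Intervals below are 95% exact intervals drawn from these reads, with the median transcript length of each gene. For Ets1 in spleen, the shortest and longest transcripts would give 7406 and 20416 reads. The width of an interval therefore depends on the length used. The intervals cover counting error only, since PCR copies are counted as separate reads and the spread between mice is not in them. The 10 genes of T cells checked, among them Cd3e and Cd4, ranged from 121 to 912 FPKM in spleen and from 94.7 to 1103 FPKM in lung. Their median log2 ratio of lung over spleen was -0.20. Foxp3 was at 18.7 FPKM in spleen and 41.8 FPKM in lung, so genes that define the labelled cell type were present in both. In bulk RNA, fewer cells that express a gene and less RNA of it per cell cannot be told apart.

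Of the 9 genes, 8 were lower in lung Tregs than in splenic Tregs, 1 of which, Lef1, was level once the libraries were set to the T cell genes. Bach2, Myb and Id3 were more than 2-fold lower, Tcf7, Foxp1 and Ets1 were between 1.67-fold and 1.91-fold lower, and Satb1 and Lef1 differed less. Zeb1 was the exception, with a value slightly higher in lung. None of the 9 was more than 2-fold higher. The median log2 ratio of the 9 genes was -0.91, against 0.031 over the 12094 genes that reached 1 FPKM in at least 1 library. Among those 12094 genes, 48.5% were lower in lung by any amount, 15.5% were more than 2-fold lower and 17.8% were more than 2-fold higher. The order of the 9 genes by ratio is seen in the plot of ratios under each scaling.

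**Figure D1:**
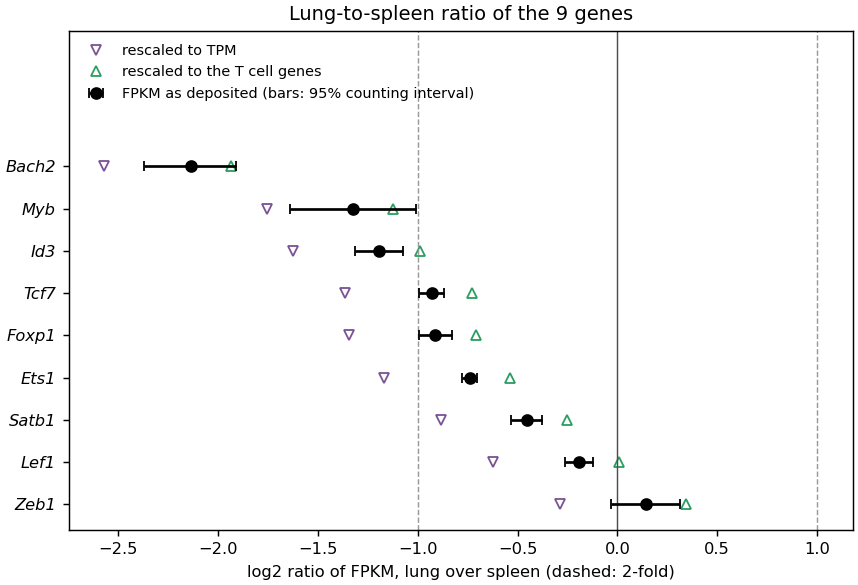
Each row is 1 gene, and the x axis is the log2 ratio of FPKM of lung over spleen, with dashed lines at 2-fold. Black points are the FPKM as deposited with 95% counting intervals, and open triangles are the same ratios after rescaling to TPM or to the T cell genes. Bach2 lies farthest to the left at -2.14, and Zeb1 and Lef1 are the genes whose sign depends on the scaling.

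How unusual a 2-fold difference was depended on the level of a gene. Among genes at 1 to under 10 FPKM in the higher library, 25.0% were more than 2-fold lower in lung, and Bach2 and Myb were among the 3 factors in that range. Of genes at 10 to under 100 FPKM, 10.4% were more than 2-fold lower, and neither Satb1 nor Foxp1 was. At 100 FPKM or more, 43 of 1309 genes (3.28%) were more than 2-fold lower, and Id3 was one of them. The median log2 ratio of genes at this level was 0.38. Within this band 34 genes had a lower ratio than Id3, 49 a lower one than Tcf7, 64 a lower one than Ets1 and 232 a lower one than Lef1. The strongly expressed factors Id3, Tcf7 and Ets1 therefore stood near the low end of the ratios at their own level, whereas 985 of the 4815 genes in the lowest band had a lower ratio than Myb. Bach2, although its ratio was the lowest of the 9, had 666 genes below it in that same band of low levels. The bands were chosen after the values had been seen.

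**Figure D2:**
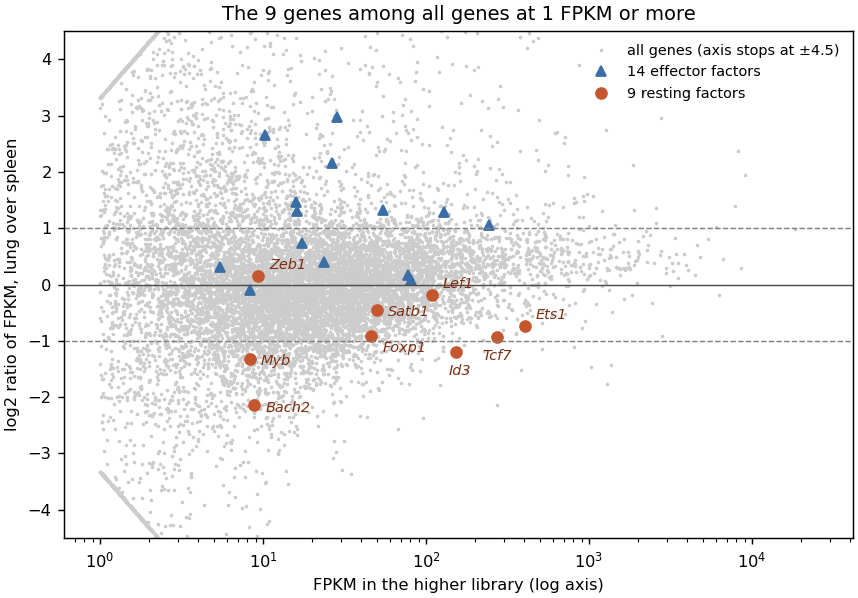
Each grey point is 1 of the 12094 genes at 1 FPKM or more, the x axis is the FPKM in the higher library on a log scale, and the y axis is the log2 ratio of lung over spleen. The y axis stops at 4.5 in either direction, which leaves 593 genes outside. The 9 resting factors (circles) lie at or under 0 apart from Zeb1, the grey diagonals are genes under the floor of 0.1 FPKM in 1 library, and the 14 effector factors (triangles) lie above 0 apart from Tbx21.

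The sequences upstream of Bach2 and Myb, the genes with the lowest ratios, are shown so that their base composition and motifs can be compared. They are the 250 bases before the RefSeq start, read 5′ to 3′ on the strand of the gene, on GRCm38.p6 (mm10). The window of Bach2 is chr4:32417185-32417434 on the plus strand. It overlaps no exon but lies within the gene in GENCODE M21, which begins farther upstream. The window of Myb is chr10:21160985-21161234 on the minus strand and ends where the GENCODE gene begins. The window of Id3, chr4:136143572-136143821 on the plus strand, lies in the 5′ UTR of the GENCODE gene and is not printed. Capitals mark a match to 1 of the 7 motifs searched.
Bach2: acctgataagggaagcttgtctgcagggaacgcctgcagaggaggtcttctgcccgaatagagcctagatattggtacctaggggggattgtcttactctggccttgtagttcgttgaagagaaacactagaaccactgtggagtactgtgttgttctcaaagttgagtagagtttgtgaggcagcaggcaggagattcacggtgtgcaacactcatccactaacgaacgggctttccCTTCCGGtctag
Myb: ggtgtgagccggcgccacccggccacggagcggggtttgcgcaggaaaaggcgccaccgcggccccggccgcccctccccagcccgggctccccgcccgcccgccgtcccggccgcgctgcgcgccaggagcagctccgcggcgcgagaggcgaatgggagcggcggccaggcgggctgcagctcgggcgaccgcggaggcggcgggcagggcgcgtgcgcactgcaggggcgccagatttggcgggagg

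The GC content of these windows was 50.4% for Bach2, 62.8% for Id3 and 81.2% for Myb, against a median of 52.4% over 32851 RefSeq promoters. The windows thus differed in base composition, and that of Myb was the richest in GC. The motifs were searched on both strands, none inside another. The letters CCGGAAG of the ETS family, to which Ets1 belongs, were found in reverse (CTTCCGG) starting 12 bases before the start of Bach2, and in 6.91% of all promoters. They were not in the windows of Id3 and Myb. Tcf7 held the same letters starting 25 bases before its second RefSeq start, a window that lies inside the gene. The bases just after that start, and after the starts of the Lef1 windows, were not found in a GENCODE M21 transcript of the gene. CTTTGAT (TCF and LEF, 3.21% of all promoters), TGAGTCA (BACH and AP-1, 4.46%), TGTTTAC (FOX, 3.17%) and TGTGGT (RUNX, 14.0%) were in none of the 17 windows of the 7 members that the table holds. CAGGTG, bound by ZEB1 (17.2% of all promoters), was in a window of Foxp1 and of Satb1, and AACNGTT of MYB (3.80%) was in a window of Foxp1. A match of letters is a description and not a bound site. Ets1 and Zeb1 had no promoter in the table.

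Bach2 had the lowest ratio. It lies on chromosome 4 of GRCm38 from 32238804 to 32586108 on the plus strand. It was listed at 8.85 FPKM in spleen and 2.01 FPKM in lung, about 760 and 196 reads. The level in lung was 4.40-fold lower, with a log2 ratio of -2.14 and a counting interval from -2.37 to -1.91. The length of 1 transcript entered the estimate for Bach2, so its read numbers carry no spread between isoforms. Bach2os, an antisense gene that shares exonic bases with Bach2, was listed at 3.85 FPKM in spleen and 0.526 FPKM in lung. It was named after its values had been seen, and reads of both genes may be mixed, since the sources used here do not state that strand was kept.

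The few genes listed beside BACH2 were mostly at or above their splenic level on the deposited scale. BACH2 binds DNA together with small MAF proteins. Mafk was at 20.4 FPKM in spleen and 21.8 FPKM in lung. Nfe2l2 (NRF2), which uses the same small MAF partners, was at 32.4 FPKM in spleen and 68.9 FPKM in lung. Of these 5 genes, 4 were higher in lung, against 6226 of the 12094 genes. More than 2-fold higher were 2, Nfe2l2 and the related factor Bach1, against 17.8% of all genes. Neither of them was so after rescaling to TPM, where Mafk also became lower. Bach1, named after its values had been seen since it is weakly expressed, was at 2.56 FPKM in spleen and 5.14 FPKM in lung. Prdm1, which encodes Blimp-1 and is a known target of repression by BACH2, was at 5.79 FPKM in spleen and 16.03 FPKM in lung. The level of Prdm1 relative to Bach2 within a library was 0.654 in spleen and 7.98 in lung. A ratio of this kind is not altered by any scaling of the libraries. The pairs given in this way were chosen with their values known.

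Id3 was 2.28-fold lower in lung. The gene lies on chromosome 4 from 136143497 to 136145755 on the plus strand. It was listed at 152 FPKM in spleen and 66.6 FPKM in lung, about 1687 and 838 reads. The log2 ratio was -1.19 with a counting interval from -1.31 to -1.07, and rescaling to the T cell genes brought it to -0.99, just under 2-fold.

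The related inhibitor Id2, which is known to rise in effector T cells while Id3 marks resting and memory states, went the other way. It was at 171 FPKM in spleen and 738 FPKM in lung, a log2 ratio of 2.11. Id2 and Id3 were thus at nearly equal levels in the splenic library, with 1.13 FPKM of Id2 for each FPKM of Id3. They were far apart in the lung library, with 11.1. The summed level of 10 macrophage genes was 676 FPKM in spleen and 27250 FPKM in lung. The part of other cells in the value of Id2 was not tested. Id1 was also higher, at 2.26 FPKM in spleen and 12.4 FPKM in lung. Id4 was listed at 0 in both. E proteins, the factors that ID proteins inhibit, were split. Tcf3 (E2A) was at 26.3 FPKM in spleen against 10.7 FPKM in lung, and Tcf12 (HEB) at 18.8 FPKM and 7.17 FPKM. Tcf3 and Tcf12 were therefore lower together with Id3, under all 5 scalings tried. Tcf4 (E2-2), a factor of plasmacytoid dendritic cells and B cells, was higher, at 1.89 FPKM in spleen and 7.08 FPKM in lung. It is under the level of 10 FPKM set for named genes and was named as the remaining E protein.

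Tcf7 and Lef1, the paralogs that encode TCF1 and LEF1, differed in how far they were from spleen. Tcf7 lies on chromosome 11 from 52252371 to 52283014 on the minus strand, and Lef1 on chromosome 3 from 131110471 to 131224356 on the plus strand. Tcf7 was listed at 273 FPKM in spleen and 143 FPKM in lung. This was 1.91-fold lower, with a log2 ratio of -0.93 and an interval from -0.99 to -0.87. Lef1 was listed at 108 FPKM in spleen and 94.96 FPKM in lung. This was 1.14-fold lower, with a log2 ratio of -0.19 and an interval from -0.26 to -0.12. The intervals of the 2 log2 ratios do not overlap. Within the libraries, Tcf7 stood at 2.52 times the level of Lef1 in spleen and at 1.51 times in lung. Relative to the T cell genes, Lef1 was nearly level between tissues, with a log2 ratio of 0.0098, whereas Tcf7 was still lower at -0.73. The long and short forms of TCF1, of which only the long form binds β-catenin, are summed in these values and cannot be told apart.

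Genes of a Wnt and TLE list set beside TCF1 and LEF1 were mostly lower as well. Of the 13 genes of this list, 10 were lower in lung, against 48.5% of all genes, and the median log2 ratio was -0.70. The same 10 were lower after rescaling to TPM, against 68.4% of all genes on that scale. The 2 that were more than 2-fold lower are a share near the 15.5% of all genes. More than 2-fold lower were 7 after rescaling to TPM, against 26.4% of all genes, and 5 after rescaling to equal upper quartiles, against 19.0%. Ctnnb1, which encodes β-catenin, was at 42.8 FPKM in spleen and 71.6 FPKM in lung. The corepressor Tle4 was at 14.4 FPKM in spleen against 8.87 FPKM in lung, and the short TLE family member Aes at 203 FPKM and 180 FPKM. Gsk3b, a kinase that marks β-catenin for degradation, was at 12.5 FPKM and 9.16 FPKM. Ctnnb1 was thus higher and the other named genes of the list lower, although Aes was no longer lower once the libraries were set to the T cell genes. The 2 genes more than 2-fold lower, Tcf7l1 and Axin2, were under 2 FPKM in both libraries and were named after their values had been seen.

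**Figure D3:**
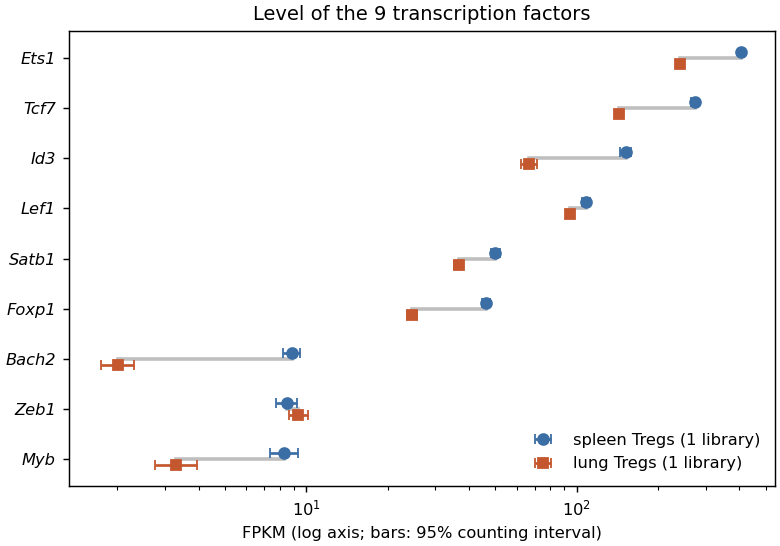
Each row is 1 gene, and the x axis is FPKM on a log scale. Circles are the splenic library, squares the lung library, and bars the 95% counting intervals. Ets1 and Tcf7 are highest in both tissues, and the widest gap between tissues is that of Bach2, from 8.85 to 2.01 FPKM.

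Ets1 was the highest of the 9 genes in both tissues. It lies on chromosome 9 from 32636221 to 32757820 on the plus strand. It was listed at 404 FPKM in spleen and 242 FPKM in lung, which ranked 233 and 515 among all symbols of the library. The level in lung was 1.67-fold lower, with a log2 ratio of -0.74 and an interval from -0.78 to -0.70. The ETS family is large and overlaps in the DNA it binds, and its other members showed that Ets1 was not alone in its direction. Of 12 other ETS genes at 1 FPKM or more, 9 were lower in lung, against 48.5% of all genes, with a median log2 ratio of -0.52. Those at 10 FPKM or more that were over 2-fold lower were Elf4 (26.5 FPKM in spleen and 6.90 FPKM in lung), Gabpa (14.9 and 3.27 FPKM) and Etv3 (10.3 and 3.82 FPKM). Elf4 is known to restrain proliferation of resting T cells. Elf1 was at 78.9 FPKM in spleen against 80.4 FPKM in lung, and Fli1 at 35.5 and 28.1 FPKM. The member more than 2-fold higher was Spi1 (PU.1), a factor of myeloid cells, at 11.6 FPKM in spleen and 44.2 FPKM in lung. All 10 genes of a macrophage list were also higher in lung, or 8 of the 10 after rescaling to TPM, and their part in the value of Spi1 was not tested. Spib, a factor of B cells and plasmacytoid dendritic cells, was at 9.17 FPKM in spleen against 0.692 FPKM in lung. It is named as the remaining gene of the 4 that were more than 2-fold lower, against 15.5% of all genes. Under rescaling to TPM, Elf1 and Etv6 became lower too, and 11 of the 12 genes were lower, against 68.4% of all genes. Relative to the T cell genes, Ets2 became higher and 8 were lower, against 39.0% of all genes.

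Foxp1 lies on chromosome 6 from 98925338 to 99522721 on the minus strand and encodes a forkhead factor that is required for naïve T cell quiescence. It was listed at 46.2 FPKM in spleen and 24.6 FPKM in lung. This was 1.88-fold lower, with a log2 ratio of -0.91 and an interval from -0.99 to -0.83. Foxp3, the forkhead relative that defines Tregs, was higher in lung, so that the level of Foxp3 relative to Foxp1 was 0.406 in spleen and 1.70 in lung. Foxp2 was listed at 0 in both. Foxp4, named as the remaining member of the family although it was under 10 FPKM, was at 5.51 FPKM in spleen and 1.32 FPKM in lung.

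Myb was the least expressed of the 9 in spleen. It lies on chromosome 10 from 21124935 to 21160984 on the minus strand. It was listed at 8.29 FPKM in spleen and 3.31 FPKM in lung, about 273 and 124 reads, which was 2.51-fold lower. The log2 ratio was -1.33, and its interval, from -1.64 to -1.01, was the widest of the 9 and reached almost to 2-fold. The coactivators CBP and p300, which MYB binds, were also lower. Crebbp (CBP) was at 17.9 FPKM in spleen against 9.65 FPKM in lung, and Ep300 (p300) at 13.0 FPKM and 5.76 FPKM. Its relatives were weakly expressed. Mybl1 and Mybl2 were at most 1.10 FPKM in either tissue.

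Satb1, a chromatin organiser that is needed for the development of Tregs in the thymus, was listed at 50.1 FPKM in spleen and 36.6 FPKM in lung. It lies on chromosome 17 from 51736187 to 51833290 on the minus strand. The level in lung was 1.37-fold lower, with a log2 ratio of -0.45 and an interval from -0.53 to -0.38. Hdac1, a deacetylase that SATB1 can recruit, was at 180 FPKM in spleen against 142 FPKM in lung. The corepressors of ZEB factors went opposite ways. Ctbp1 was at 76.1 FPKM in spleen and 43.5 FPKM in lung, whereas Ctbp2, named after its values had been seen since it is weakly expressed, was at 1.36 and 6.22 FPKM. Of the 4 genes at 1 FPKM or more listed beside SATB1 and ZEB1, 2 were lower, against 48.5% of all genes. The other 2 were higher, and the median log2 ratio was 0.93.

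Zeb1 was the only one of the 9 that was higher in lung on the deposited scale, and it was lower there after rescaling to TPM or to equal upper quartiles. It lies on chromosome 18 from 5591860 to 5775467 on the plus strand. It was listed at 8.48 FPKM in spleen and 9.36 FPKM in lung, about 492 and 616 reads. The log2 ratio was 0.14 with an interval from -0.032 to 0.32 that includes 0. The scaling moved it further than the counting error, to -0.29 with TPM and to 0.35 relative to the T cell genes. Zeb2, the paralog that is known to be favoured in effector T cells and is abundant in macrophages, was at 0.766 FPKM in spleen and 3.74 FPKM in lung. It was named after its values had been seen. The level of Zeb2 relative to Zeb1 was 0.0904 in spleen and 0.400 in lung. All 5 fibroblast genes at 1 FPKM or more, of 8 listed, were higher in lung, and the summed FPKM of the list was 0.290 in spleen and 163 in lung. Fibroblasts are known to express Zeb1, and their part in its value was not tested.

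The 9 genes spanned a wide range of levels and largely kept their order between tissues. Ets1 and Tcf7 came first in both. In spleen they were followed by Id3, Lef1, Satb1 and Foxp1, and then by Bach2, Zeb1 and Myb, whose neighbouring counting intervals overlapped. In lung, Lef1 stood above Id3, and Zeb1 above Myb and Bach2, with no overlap between neighbours. The order in lung thus differed in the place of Id3 and of Bach2. Bach2 was in place 7 in spleen and in place 9 in lung. The levels are per kilobase of exon, so they can be compared between genes, but the spread between mice is not known and the order rests on 1 library each.

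Other genes of resting T cells were divided. Of 16 such genes, 10 were lower in lung, against 48.5% of all genes, and 6 higher, with a median log2 ratio of -0.50. Foxo1, Txk and Actn1 were among the 4 that were more than 2-fold lower, against 15.5% of all genes. Txk alone was so relative to the T cell genes. Foxo1, a factor that maintains Il7r, was at 91.2 FPKM in spleen and 45.2 FPKM in lung. The kinase gene Txk was at 59.0 FPKM and 19.4 FPKM. Actn1, an actinin of naïve T cells, had a log2 ratio of -1.20. Klf2, which controls egress from lymphoid tissue, was closer to spleen, at 296 and 170 FPKM. By contrast, Ccr7, the receptor for lymph node homing, was at 311 FPKM in spleen and 361 FPKM in lung. Il7r, the receptor of the survival cytokine IL-7, was at 107 FPKM and 182 FPKM. Dapl1 was the member more than 2-fold higher, at 41.8 FPKM in spleen and 87.1 FPKM in lung, though not after rescaling to TPM. After rescaling to TPM, Ccr7 and Btg1 were lower too and 12 of the 16 were lower, against 68.4% of all genes on that scale. Lef1, like Ccr7, differed little between tissues, whereas Tcf7 and Id3 differed in the direction of Foxo1 and Txk.

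Factors of effector Tregs were mostly higher in lung. Of 14 such genes, 13 had a higher level in lung, against 6226 of the 12094 genes, and the median log2 ratio was 1.17. More than 2-fold higher were 8 of the 14, against 17.8% of all genes on the deposited scale. After rescaling to TPM they were 4, and the share of all genes was not taken on that scale. Batf, an AP-1 factor needed for tissue Tregs, was at 117 FPKM in spleen against 244 FPKM in lung, and Irf4 was at 6.57 and 16.2 FPKM. Rora was at 5.93 FPKM in spleen against 26.5 FPKM in lung, and Pparg, known from fat tissue Tregs and also from alveolar macrophages, at 3.57 and 28.2 FPKM. Nfil3 was at 21.8 and 54.7 FPKM and Bhlhe40 at 53.3 and 129 FPKM. Gata3 was close between tissues, at 69.1 and 77.3 FPKM, and Hif1a at 76.8 and 80.8 FPKM. Rescaled to TPM, 9 of the 14 were higher and 5 lower, Gata3 and Hif1a among the lower ones. On that scale 68.4% of all genes were lower. The log2 ratio ranged from -2.14 to 0.14 in the resting factors and from -0.094 (Tbx21) to 2.98 (Pparg) in the effector factors. All resting factors but Zeb1 were below Tbx21. No test of the difference was made, since the lists were chosen with results of these libraries known.

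**Figure D4:**
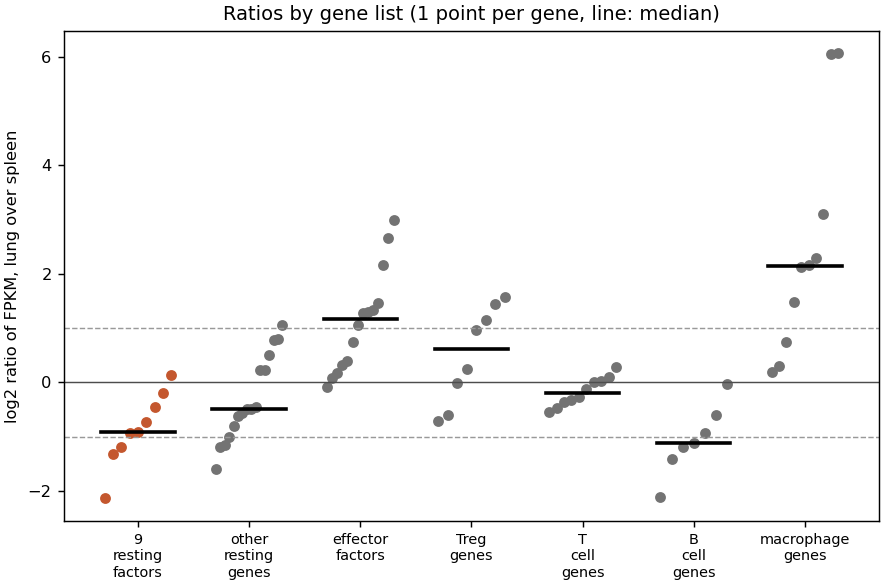
Each point is 1 gene at 1 FPKM or more, columns are gene lists, the y axis is the log2 ratio of FPKM of lung over spleen, and black lines are medians. The medians are -0.91 for the 9 resting factors, -0.50 for other resting genes, 1.17 for effector factors, -0.20 for T cell genes, -1.11 for B cell genes and 2.14 for macrophage genes.

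Genes of other cells also differed between the libraries, in both directions. Of 8 B cell genes listed, 7 were at 1 FPKM or more and all 7 were lower in lung, with none of the 8 at 0, and the list summed to 265 FPKM in spleen against 133 FPKM in lung. B cells are known to express Bach2, Foxp1, Ets1 and Id3, and their part in the lower values in lung was not tested. The summed level of the 10 macrophage genes was 676 FPKM in spleen and 27250 FPKM in lung, none at 0, and Lyz2 made up most of it. Such RNA takes a share of the fragments of a library, and the values relative to the T cell genes bear on that share. On this scale 7 of the 9 genes were lower in lung, against 39.0% of all genes, and the median log2 ratio was -0.71. Bach2 and Myb were more than 2-fold lower, against 12.4% of all genes. Bach2 stood at 0.0172 FPKM for each FPKM of Cd3e in spleen and at 0.00544 in lung, and Id3 at 0.296 and 0.180. Cd3e itself had a log2 ratio of -0.48, under the median of the T cell genes. The 6 genes of CD8 T cells and NK cells summed to 39.7 FPKM in spleen against 106 FPKM in lung, with Ncr1 at 0 in lung. CD8 T cells are known to express Tcf7 and Lef1, and their part in these values was not tested.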

How the data were processed

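RNA of GFP+CD4+ T cells pooled from 3 mice was made into cDNA with SMART-Seq HT and Nextera XT and sequenced as 75-base single-end reads on an Illumina HiSeq instrument. Mapping by the authors, against mm10, used TopHat2 2.1.1, Bowtie2 2.2.8 and SAMtools 0.1.18, and the deposited FPKM values came from Cuffdiff 2.2.1. How the libraries were scaled to each other and which annotation was used are not given in the sources used here.

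The ratio of lung over spleen was taken on FPKM floored at 0.1, over 12094 symbols that reached 1 FPKM in either library, with 2-fold as the threshold. Reads were estimated with GENCODE M21 lengths (found for 23016 of 24346 symbols) from the steps of low values. Of single-length genes with 1 to 10 reads, 73.3% in spleen and 75.6% in lung lay within 0.1 of a whole read. The estimate was tested on simulated reads drawn with the same transcript lengths, a test that cannot show errors of length or from PCR copies. Members and lists were chosen with earlier results of these data known. Named genes were the 9 members and listed genes at 10 FPKM or more. Exceptions are said to be such. Some listed genes are not reported here by name. Other scalings, floors, filters and folds were tried. Analyses used Python 3.11.15, pandas 2.3.3 and scipy 1.17.1.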

Additional observations from a re-analysis of the deposited data

How the results depend on the processing

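The ratio of Bach2, Id3, Myb, Tcf7, Foxp1, Ets1 and Satb1 kept its direction under every scaling, floor and filter tried. Zeb1 turned lower when the libraries were rescaled to TPM (log2 ratio -0.29), to TPM without small RNA (-0.30) or to equal upper quartiles (-0.034), and Lef1 turned higher relative to the T cell genes (0.0098). Against 3 genes more than 2-fold lower, there were 6 under TPM, 6 under TPM without small RNA, 5 under upper quartiles and 2 (Bach2 and Myb) relative to the T cell genes. Over all genes the share was 26.4% with TPM, 19.0% with upper quartiles and 12.4% relative to the T cell genes. The median of the 9 was -1.34, -1.35, -1.09 and -0.71 under these 4 scalings, which moved all genes by -0.43, -0.44, -0.18 and 0.20. The threshold itself mattered, since 6 genes were more than 1.5-fold lower (25.4% of all genes) and 1, Bach2, more than 4-fold lower (7.0%). With genes at 10 FPKM or more alone, 1 remained, Id3 (9.15%). No paired analysis was possible because each tissue has 1 library, and no replicate could be left out. Depth limits Myb and Bach2 in lung most, with about 124 and 196 reads.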

Other observations

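Of 8 genes of Tregs, 5 were higher in lung and 3 lower, with a median log2 ratio of 0.61, where 48.5% of all genes were lower. After rescaling to TPM, 4 were higher and 4 lower, where 68.4% of all genes were lower. Ctla4, the inhibitory receptor, was at 221 FPKM in spleen and 601 FPKM in lung, whereas Il2ra, the IL-2 receptor chain CD25, was at 89.4 FPKM and 59.1 FPKM. Ikzf2 (Helios) was at 42.0 FPKM in spleen and 41.6 FPKM in lung. Ctla4 was thus opposite in direction to the resting factors that were lower in lung, which were all but Zeb1, and Il2ra was not.

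Within libraries, Tcf7 stood at 0.532 FPKM for each FPKM of Cd3e in spleen and 0.388 in lung, and Ets1 at 0.787 and 0.656. Lef1 stood at 0.211 and 0.257, but this direction rests on the reference gene, since Cd3e had a log2 ratio of -0.48 against a median of -0.20 over the 10 T cell genes. Relative to that median, Lef1 was at 0.0098.

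Markers of cells outside the gate were present in the lung library. The summed level of 8 epithelial genes was 11.0 FPKM in spleen and 3135 FPKM in lung, with Sftpc, Sftpb and Krt8 at 0 in spleen. The 7 neutrophil genes summed to 462 FPKM in spleen against 1208 FPKM in lung, with Ngp at 0 in lung. The 8 endothelial genes summed to 55.5 and 48.9 FPKM, with Cdh5, Tek and Emcn at 0 in spleen and Kdr and Emcn at 0 in lung. Pecam1, which leukocytes also express, made up most of both sums, at 54.8 FPKM in spleen and 31.7 FPKM in lung. The other 3 endothelial genes at 1 FPKM or more were all more than 2-fold higher in lung. Their part in the values of the 9 genes was not tested.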
